A study of Mus musculus with 16 samples.

Results

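The 10 genes described here encode inflammatory defence enzymes and acute-phase proteins that intestinal epithelium can make: the serum amyloid A genes Saa1, Saa2 and Saa3, Lcn2, Nos2, Duox2 with its partner Duoxa2, Nox1, Pglyrp1 and Pla2g2a. They were chosen by name, with earlier results of these data known, as every probe set annotated to them on the Mouse 430 2.0 GeneChip. Of the 10 genes, 8 had a probe set, and together they had 9 of the 45101 probe sets of the table. No probe set was listed for Duox2 or Nox1 in the annotation used here, so the catalytic subunits of both epithelial NADPH oxidases are named only. Saa1 had 2 probe sets and each of the other 7 genes had 1.

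Serum amyloid A proteins are small lipid-carrying proteins that the liver releases in an acute-phase response and that gut epithelium makes on contact with bacteria, and Saa3 is also made outside the liver by macrophages and epithelia. Lcn2 (lipocalin 2) binds bacterial siderophores and so withholds iron, while Nos2, the inducible nitric oxide synthase, makes nitric oxide from arginine. Duox2 and Nox1 make hydrogen peroxide and superoxide at the epithelial surface, and Duoxa2 is the maturation factor that Duox2 needs to leave the endoplasmic reticulum and work. Pglyrp1 is a secreted protein that binds bacterial peptidoglycan, and Pla2g2a encodes a secreted phospholipase A2 that attacks bacterial membranes. The RefSeq table used for gene names lists the mouse Pla2g2a as a transcribed pseudogene.

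The samples were cecal epithelium, captured by laser from sections, of adult NMRI mice raised in gnotobiotic isolators on a standard polysaccharide-rich diet. Germ-free controls (GF) were set against mice colonized for 10 d with Bacteroides thetaiotaomicron alone (Bt), with Bifidobacterium longum alone (Bl) or with both species (Bt/Bl). RNA from 4 mice of a state was pooled, amplified in 2 separate reactions and hybridized to 2 GeneChips: 9128 and 9129 for GF, 9130 and 9443 for Bt, 9134 and 9135 for Bl, and 9132 and 9133 for Bt/Bl. The spread between the 2 GeneChips of a state is therefore technical, every p-value compares 1 pool with another, and differences between mice were not measured. All 4 states shared the mouse strain and diet, and the study's methods describe all mice as male.

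The upstream sequences of 6 members are shown first, to let the neighbouring genes Saa1 and Saa2 be compared and because some members share a motif. RefSeq (GRCm38.p6) held a promoter for 8 of the 10 genes, Nos2 and Pla2g2a being without one in the table used. The lines below give the 250 bases before the start of transcription, 5′ to 3′ on the strand of the gene. Capitals mark the motif that was found in each of them, by a search of both strands for a C/EBP site (TTGCNNAA), a STAT site (TTCNNNGAA), the NF-kappaB motif and a TATA box.
Saa1, chr7:46742981-46743230, minus strand: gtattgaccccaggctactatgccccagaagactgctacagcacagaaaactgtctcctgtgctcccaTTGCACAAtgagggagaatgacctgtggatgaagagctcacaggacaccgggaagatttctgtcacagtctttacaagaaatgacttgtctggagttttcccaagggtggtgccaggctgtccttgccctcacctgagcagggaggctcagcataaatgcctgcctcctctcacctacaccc
Saa2, chr7:46751583-46751832, plus strand: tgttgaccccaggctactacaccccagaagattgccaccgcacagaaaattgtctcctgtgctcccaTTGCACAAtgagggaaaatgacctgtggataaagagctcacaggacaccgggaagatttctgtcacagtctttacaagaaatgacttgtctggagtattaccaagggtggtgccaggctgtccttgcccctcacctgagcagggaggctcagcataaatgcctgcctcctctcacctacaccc
Saa3, chr7:46715677-46715926, minus strand: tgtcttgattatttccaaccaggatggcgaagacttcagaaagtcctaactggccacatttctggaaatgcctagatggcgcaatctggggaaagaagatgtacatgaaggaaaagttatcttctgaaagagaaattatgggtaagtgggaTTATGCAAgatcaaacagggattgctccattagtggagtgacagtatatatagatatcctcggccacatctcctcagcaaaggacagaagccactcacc
Lcn2, chr2:32387740-32387989, minus strand: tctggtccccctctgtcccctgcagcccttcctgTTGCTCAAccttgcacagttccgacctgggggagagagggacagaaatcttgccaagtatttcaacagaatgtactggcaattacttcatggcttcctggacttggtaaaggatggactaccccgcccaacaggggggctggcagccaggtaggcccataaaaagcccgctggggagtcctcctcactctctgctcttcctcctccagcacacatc
Duoxa2, chr2:122298650-122298899, plus strand: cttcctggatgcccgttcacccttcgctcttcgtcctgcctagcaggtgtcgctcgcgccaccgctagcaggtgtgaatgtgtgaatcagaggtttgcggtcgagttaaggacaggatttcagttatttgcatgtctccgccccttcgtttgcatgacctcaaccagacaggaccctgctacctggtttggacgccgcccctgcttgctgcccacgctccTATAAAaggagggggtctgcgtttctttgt
Pglyrp1, chr7:18884440-18884689, plus strand: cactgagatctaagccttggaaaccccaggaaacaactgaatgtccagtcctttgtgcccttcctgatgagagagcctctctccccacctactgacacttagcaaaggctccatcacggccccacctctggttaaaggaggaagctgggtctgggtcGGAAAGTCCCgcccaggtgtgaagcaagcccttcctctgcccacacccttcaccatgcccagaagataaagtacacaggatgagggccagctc

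TTGCNNAA was present in 4 of the 8 member promoters, those of Saa1, Saa2, Saa3 and Lcn2, while 9.56% of the 32851 mouse promoters of the same length held it. It began 182 bases before the start in Saa1 and 183 bases before it in Saa2, and in Saa3 it lay on the other strand, from 99 to 92 bases before the start. A TATA box was found in Duoxa2, 30 bases before the start, and 12.4% of all promoters held it. The NF-kappaB motif was found in Pglyrp1, on the opposite strand, and in Nox1 (17.6% of all promoters), and TTCNNNGAA in none of the 8 (7.02% of all promoters). The Saa1 and Saa2 windows were 94.8% identical, with 238 matching positions, 11 mismatches and 2 gaps, whereas the Saa3 window was 52.2% identical to that of Saa1 in the same kind of alignment, no more than that of Lcn2 (53.5%). A match gives the presence of these letters, and binding of a factor was not measured.

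The identity of 1 probe set is open. 1419075_s_at was annotated to Saa1, but the RefSeq record from which it was designed now bears the symbol Saa2, and 1449326_x_at, annotated to Saa2, was designed from the same record. The suffix _s marks probes that match several transcripts and _x probes that may hybridize to others, so the signals of Saa1 and Saa2 may share transcript. In the counts below 1419075_s_at and 1449326_x_at are counted separately, though both may measure the same transcript. The name Saa1 for 1419075_s_at is that of the annotation. The record of 1450788_at, the other Saa1 probe set, bears the symbol Saa1.

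Some features of the whole data set touch every comparison with GF, because all of them use the same GF pool. Fabp6, an ileal bile acid binding protein, read 68029 and 95108 on the GF GeneChips and from 1179 to 1798 on the 6 others. Although the study's methods describe male mice, the X-inactivation transcript Xist read 17157 and 22762 in GF and from 3753 to 11176 elsewhere, and the Y-linked Eif2s3y read 71.3 and 614 in GF and from 3201 to 5657 elsewhere. Summed plasma and B cell markers ran from 159225 to 182093 in GF and from 63752 to 114670 in the colonized states. The ratio of 3′ to 5′ signal of the Gapdh control was 5.66 and 7.26 in GF and from 8.93 to 17.6 in the others, while that of the b-Actin control went the other way, with 36.9 and 38.8 in GF and from 21.4 to 36.3 in the others. The part of these differences in the results below was not tested. All 11 epithelial markers, led by Krt8, Krt20 and Lgals4, and all 8 cecal and colonic markers exceeded the median of all values on every GeneChip. Median signals ran from 474.9 on GF 9129 to 759 on Bl 9134, and the median absolute log2 difference between the 2 GeneChips of a state ran from 0.46 in Bt/Bl to 0.69 in Bl.

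**Figure D1:**
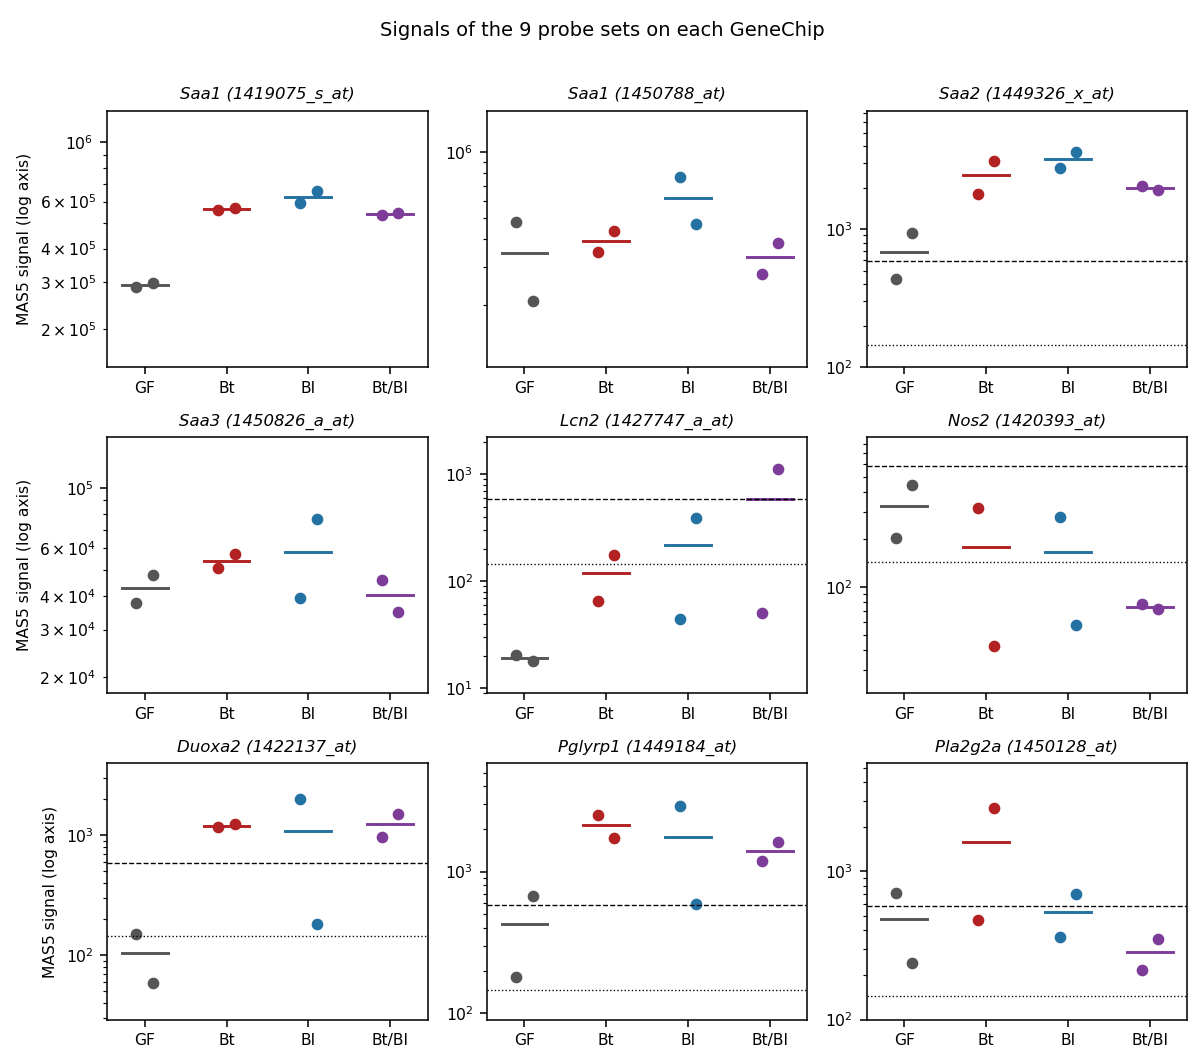
MAS5 signals (log axis, a range of its own in each panel) of the 9 probe sets on the 2 GeneChips of each of the 4 states, with a bar at the mean of each state. The dotted line is the floor of 144.7 and the dashed line the median of all values, 583.1, where they fall within the panel. In Saa1 (1419075_s_at), Saa2 and Duoxa2 both GF points lie under all 6 colonized points.

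Colonization was accompanied by higher signals of 1419075_s_at (annotated to Saa1), Saa2, Duoxa2 and, with 1 overlap, Pglyrp1. In no comparison did a member pass the test over all probe sets. Of the 9 probe sets 6 were bright enough to test, with both GeneChips of some state over the median of all values (583.1), and those of Lcn2, Nos2 and Pla2g2a were not. Only 3 of the 6 (both of Saa1, and Saa3) were this bright in GF, whereas Saa2, Duoxa2 and Pglyrp1 entered only through the colonized states in which they were high. Their direction was thus favoured by the filter, and the counts of higher members below are a description that supports nothing. In such bulk RNA, more cells of a type and more RNA per cell cannot be told apart. Limma called 0 of the 6 in Bt against GF, where it called 0.169% of all 24865 probe sets tested, 0 in Bl (0.137%) and 0 in Bt/Bl (0.197%), at an adjusted p under 0.05. At an unadjusted p under 0.05, 4 of 6 were higher in Bt (5.12% of all tested), 3 in Bl (6.5%) and 4 in Bt/Bl (4.01%), and of the 3 bright enough in GF these were 1, 2 and 1. Signals did not overlap with those of GF and were higher in 5 of 6 in Bt (21.6% of all tested), 3 in Bl (23.9%) and 4 in Bt/Bl (21.2%), and of the 3 bright enough in GF these were 2, 1 and 1.

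For the mean of the 3 colonized states against GF, a comparison added after the data were seen, limma called 0 of 6 (0.241% of all tested), and 4 of 6 were higher at an unadjusted p under 0.05 (5.5%). Both GF signals lay below all 6 colonized signals in 3 of the 6 tested probe sets (4.4% of all tested), of which 1419075_s_at of Saa1 alone was bright enough in GF. The lower 90% bound of the fold exceeded 2, with a difference in signal of over 10, for Duoxa2 and Pglyrp1 in Bt (1.62% of all tested were higher by this rule), for Saa2 in Bl (2.26%) and for Duoxa2 in Bt/Bl (0.752%). For Duoxa2 these bounds rest on GF signals at or under the floor of 144.7, and with the floor at the median of all values its log2 difference itself fell to 1.04 in both states.

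Of the 4 serum amyloid A probe sets, 2 had both GF signals below all colonized signals. The first of them, 1419075_s_at of Saa1, read 288216 and 296403 in GF, 559833 and 567469 in Bt mice, 592231 and 656287 in Bl mice, and 533027 and 545373 in Bt/Bl mice. The duplicates lay close together in each state, and the lowest colonized signal was 1.80 times the higher GF signal. The log2 difference from GF was 0.95 in Bt (1.93-fold, standard error 0.30, limma adjusted p = 0.296), 1.09 in Bl (2.13-fold, adjusted p = 0.172) and 0.88 in Bt/Bl (1.84-fold, adjusted p = 0.481). Leaving out any 1 GeneChip kept these values between 0.93 and 0.97 in Bt mice, 1.02 and 1.17 in Bl mice, and 0.86 and 0.90 in Bt/Bl mice. For the mean of the 3 colonized states the log2 difference was 0.97 (1.97-fold, standard error 0.24, adjusted p = 0.209). It passed when the filter was set at the 75th percentile of all values (adjusted p = 0.0240). Over the alternatives that kept all 8 GeneChips the limma adjusted p ran from 0.0240 to 0.594. That filter changes both the number of probe sets adjusted over and the spread that limma fits. The part of each was not tested.

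The other Saa1 probe set, 1450788_at, did not separate the states. It read 480076 and 209548 in GF, 348598 and 436914 in Bt mice, 770440 and 467908 in Bl mice, and 277962 and 385465 in Bt/Bl mice. The GF duplicates differed 2.29-fold and enclosed both Bt and both Bt/Bl signals. Its log2 difference from GF was 0.30 in Bt (adjusted p = 0.866), 0.92 in Bl (1.89-fold, standard error 0.39, adjusted p = 0.378) and 0.05 in Bt/Bl. Without GF 9129 the Bt and Bt/Bl values turned to -0.30 and -0.55. A direction in those states thus rests on the other probe set annotated to Saa1, whose identity is open. For Saa1 itself the direction in Bt and Bt/Bl is therefore open as well.

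Saa2 (1449326_x_at) read 438 and 933 in GF, 1802 and 3128 in Bt mice, 2795 and 3613 in Bl mice, and 2063 and 1924 in Bt/Bl mice. The lowest colonized signal was 1.93 times the higher GF signal, and the GF duplicates were farther apart on the log scale than those of any colonized state. The difference from GF was 1.89 in Bt (3.71-fold, standard error 0.56, adjusted p = 0.269), 2.31 in Bl (4.97-fold, adjusted p = 0.131) and 1.64 in Bt/Bl (3.12-fold, adjusted p = 0.482), all in log2 units. Over fits that each lacked 1 GeneChip, the Bt value ran from 1.35 without GF 9128 to 2.44 without GF 9129, the Bl value from 1.77 to 2.86 and the Bt/Bl value from 1.09 to 2.18, with the same GeneChips at the ends.

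Saa3 (1450826_a_at) read 37594 and 47810 in GF, 50582 and 57239 in Bt mice, 39146 and 77029 in Bl mice, and 45818 and 34932 in Bt/Bl mice. The Bt signals were above both GF signals, whereas the Bl and Bt/Bl signals overlapped with GF. The log2 difference was 0.34 in Bt (1.27-fold, standard error 0.29, adjusted p = 0.760), 0.37 in Bl and -0.08 in Bt/Bl, and the Bl value fell to -0.12 without Bl 9135. The 90% interval of the Bt value ran from -0.16 to 0.84.

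**Figure D2:**
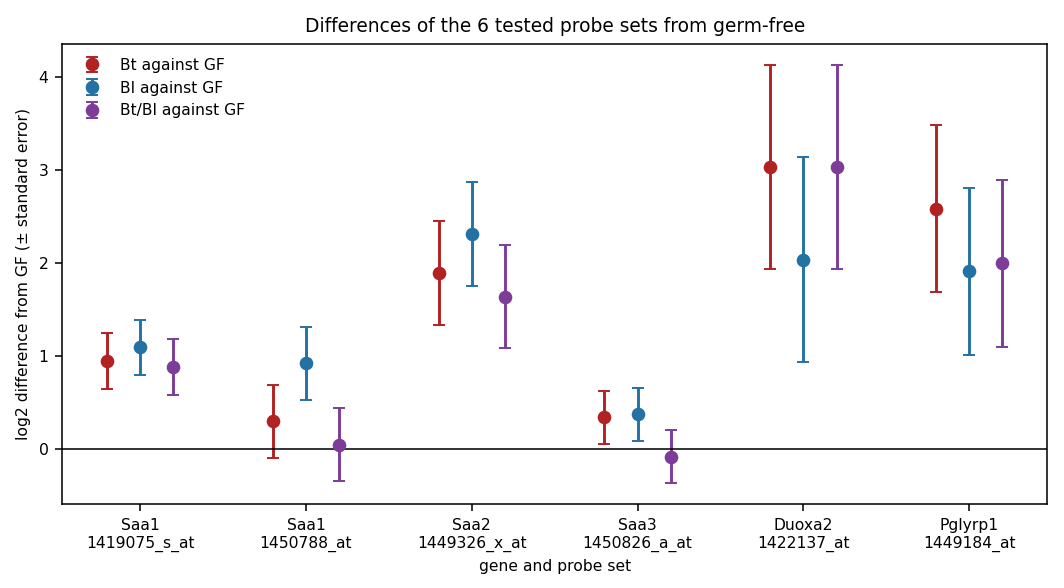
Differences from GF (log2, points, with bars of ± 1 standard error from the limma fit) of the 6 tested probe sets in Bt, Bl and Bt/Bl. Duoxa2 and Pglyrp1 have the highest points in Bt and Bt/Bl and also the longest bars, and the points of Saa3 stay between -0.08 and 0.37.

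Duoxa2 (1422137_at) read 149 and 58.1 in GF, 1168 and 1237 in Bt mice, 1982 and 183 in Bl mice, and 958.5 and 1508 in Bt/Bl mice. Both Bt and both Bt/Bl signals were well above GF, and the Bl duplicates differed 10.8-fold, with Bl 9135 just over the higher GF signal. With the GF signal under the floor of 144.7 raised to it, the log2 difference was 3.03 in Bt (8.18-fold, standard error 1.10, adjusted p = 0.365), 2.04 in Bl (4.10-fold, adjusted p = 0.507) and 3.03 in Bt/Bl (8.18-fold, adjusted p = 0.515). The Bl value ran from 0.32 without Bl 9134 to 3.75 without Bl 9135. The size also depended on the floor, since with the floor at the median of all values the difference in Bt was 1.04 and with no floor 3.67.

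Genes that work beside Duoxa2 and the 2 oxidases without a probe set were taken from a list of NADPH oxidase partners and relatives. Of the 5 tested, limma called 0 against GF in Bt (0.216% of all 12937 tested genes), Bl (0.17%) and Bt/Bl (0.263%). At an unadjusted p under 0.05, 2 were higher in Bt (4.75% of all tested genes), 3 in Bl (5.53%) and 2 in Bt/Bl (4.07%), namely Noxo1 and Cyba and, in Bl, Rac2. Noxo1, the organizer subunit of Nox1, read 11797 and 8254 in GF, 28257 and 15670 in Bt mice, 19771 and 15787 in Bl mice, and 15585 and 19528 in Bt/Bl mice, so that all colonized signals exceeded GF (log2 difference 1.09, 0.84 and 0.82, adjusted p = 0.212, 0.264 and 0.510). Rac1, the small GTPase that activates Nox1, ranged from 23590 to 31023 over the 8 GeneChips, with differences of -0.06, -0.07 and 0.18. Cyba, the membrane partner of Nox1 and other oxidases, was picked after its values were seen: it read 1652 and 743 in GF and from 1974 to 4480 in the colonized states (log2 difference 1.68, 1.42 and 1.40, adjusted p = 0.292, 0.292 and 0.528). The list had medians of -0.06 in Bt mice, 0.84 in Bl mice and 0.82 in Bt/Bl mice, where all 12937 tested genes had medians of 0.01, 0.00 and 0.00. With 5 genes these medians are the values of single genes, Rac1 in Bt and Noxo1 in Bl and Bt/Bl. Rac2 (463 and 126 in GF) entered the tests only through Bl and Bt/Bl, in which it was high. The medians thus do not show a rise of the whole list. Of the enzymes that remove hydrogen peroxide and superoxide, 0 of 11 tested were called against GF, with medians of -0.00, -0.02 and -0.36. Sod1 and Txn1, the brightest of them, differed from GF by no more than 0.39 on the log2 scale in any state.

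Pglyrp1 (1449184_at) read 180 and 669 in GF, 2507 and 1738 in Bt mice, 2908 and 588 in Bl mice, and 1197 and 1614 in Bt/Bl mice. Of the 6 colonized signals 5 were above both GF signals, the exception being Bl 9135. The duplicates differed 3.71-fold in GF and 4.94-fold in Bl. The log2 difference was 2.59 in Bt (6.01-fold, standard error 0.90, adjusted p = 0.344), 1.91 in Bl (3.77-fold, adjusted p = 0.428) and 2.00 in Bt/Bl (4.00-fold, adjusted p = 0.637). In Bt it ran from 1.64 without GF 9128 to 3.53 without GF 9129, in Bl from 0.76 without Bl 9134 to 3.07 without Bl 9135, and in Bt/Bl from 1.05 without GF 9128 to 2.95 without GF 9129. In the list of peptidoglycan recognition and lysis, limma called 0 of the 2 tested genes against GF. Lyz1, a lysozyme, read 20428 and 15797 in GF and 8081 and 5773 in Bl, a log2 difference of -1.40 (adjusted p = 0.103), and its other 2 tested probe sets differed by -1.28 and 0.63. Pglyrp2 was under the floor on all GeneChips.

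**Figure D3:**
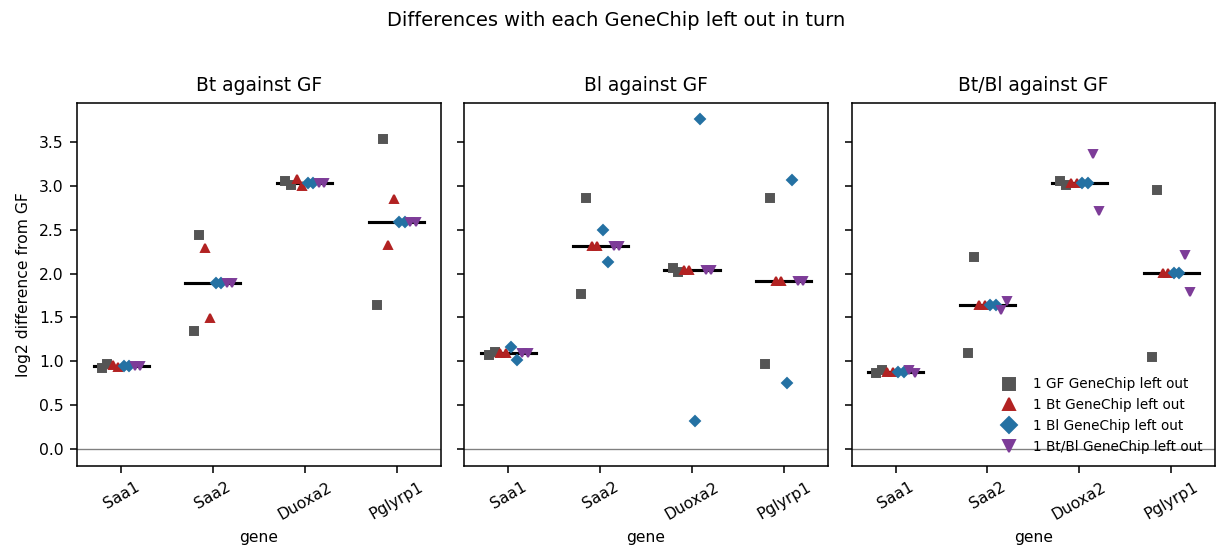
Differences from GF (log2) of Saa1 (1419075_s_at), Saa2, Duoxa2 and Pglyrp1 in Bt, Bl and Bt/Bl with each of the 8 GeneChips left out in turn, marked by the state of the GeneChip, and a black bar at the value over all GeneChips. Saa1 hardly moves, Saa2 and Pglyrp1 move with the GF GeneChips, and Duoxa2 and Pglyrp1 in Bl move from near or under 1 to over 3 with the Bl GeneChips, while all points stay above 0. Except for Pglyrp1 in Bl, this sign could not change, since both GF signals lay below those of the state.

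Lcn2, Nos2 and Pla2g2a were too dim to test. Lcn2 (1427747_a_at) read 20.3 and 18 in GF, 65.5 and 175.7 in Bt mice, 44.5 and 392 in Bl mice, and 51.1 and 1115 in Bt/Bl mice. Of the 8 signals 5 lay under the floor, where their order means nothing, 1 GeneChip exceeded the median of all values, and the Bt/Bl duplicates differed 21.8-fold. Fitted with no filter, its log2 difference from GF was 0.14 in Bt mice, 0.72 in Bl mice and 1.47 in Bt/Bl mice (standard error 0.93, limma adjusted p = 1, 0.888 and 1). No fold is given, since both GF signals were under the floor.

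Nos2 (1420393_at) read 204 and 444 in GF, 314 and 42.5 in Bt mice, 278 and 57.8 in Bl mice, and 77.5 and 72.5 in Bt/Bl mice. None of the 8 signals exceeded the median of all values and 4 were under the floor, among them both of Bt/Bl. With no filter the adjusted p against GF was 0.929, 0.852 and 1. Among the other genes of arginine and nitric oxide metabolism, limma called 0 of 13 tested against GF (at an unadjusted p under 0.05 Arg2 alone was higher in Bt, where 4.75% of all tested genes were, and Asl alone lower in Bl, where 5.68% were). Slc7a1, an arginine transporter, and Pts, an enzyme of tetrahydrobiopterin synthesis, differed from GF by at most 0.26 on the log2 scale at their brightest probe sets. Another tested probe set of Slc7a1 differed by -0.46 in Bt (adjusted p = 0.749). Arg2, the mitochondrial arginase, which was picked after its values were seen, read 2777 and 3242 in GF and 7083 and 6680 in Bt (log2 difference 1.20, adjusted p = 0.212), with 0.09 in Bl and 0.37 in Bt/Bl.

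Pla2g2a (1450128_at) read 713 and 239 in GF, 474 and 2683 in Bt mice, 361 and 707 in Bl mice, and 218 and 352 in Bt/Bl mice. The GF signals overlapped with those of every colonized state. Both Bt/Bl signals lay below both of Bt and both of Bl, as in 22.3% and 23.7% of all tested probe sets. The margin to Bl was small (352 against 361). The highest signal, of Bt 9443, was 5.67 times that of its duplicate. In the secreted phospholipase A2 family limma called 0 of 6 tested, and Pla2g12b and Pla2g10, the brightest of them, differed from GF by 0.13 to 0.56 on the log2 scale over the 3 states.

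Lcn2 and Pglyrp1 are also stored in granules of neutrophils, and Saa3 is also made by macrophages. Of 10 neutrophil markers on the GeneChip none exceeded the median of all values on every GeneChip, and none was under the floor on all. Their summed signal ran from 3644 to 3897 in GF, 5078 to 7121 in Bt, 3167 to 4425 in Bl and 4131 to 7013 in Bt/Bl. It was thus above GF in Bt and Bt/Bl and overlapped with GF in Bl. Only 4 were bright enough to test, and limma called 0 of them against GF. Of these 4, 1 and 3 lay above GF in Bt, Bl and Bt/Bl, with median log2 differences of 1.28, -0.24 and 1.38. Among them S100a8, Ngp and Ltf entered only through colonized states in which they were high. Csf3r, Ngp and Prtn3 were the brightest: Ngp, a granule protein, read 166 and 1181 in GF, 984 and 1266 in Bt mice, 261 and 496 in Bl mice, and 1548 and 2063 in Bt/Bl mice. S100a8, a calprotectin subunit, read 49.7 and 163 in GF, 786 and 636 in Bt and 351 and 116 in Bl, and in Bt/Bl it was under the floor on both GeneChips (39.5 and 33.1), as was S100a9, the other subunit (22.5 and 36.5). The summed macrophage markers, led by Cd14, Csf1r and Adgre1, ran from 22473 to 23866 in GF, 29792 to 33088 in Bt, 18739 to 24026 in Bl and 31142 to 31360 in Bt/Bl. Both sums weigh bright genes most. Of the 9 macrophage markers tested, 7, 3 and 5 lay above GF in Bt, Bl and Bt/Bl, with median log2 differences of 0.26, -0.33 and 0.04. Limma called 0 of them, and in Bt/Bl Cd14 alone was higher at an unadjusted p under 0.05 (4.07% of all tested genes). The part of these cells in the signals of Pglyrp1, Lcn2 and Saa3 was not tested.

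Between the colonized states no member passed the test over all probe sets. Limma called 0 of 6 in Bt/Bl against Bt (0.0483% of all tested), against Bl (0.0563%) and in Bl against Bt (0.0442%). At an unadjusted p under 0.05 the counts were 0 (10.5% of all tested), 1 (11.8%) and 0 (11.9%), the 1 being 1450788_at of Saa1, which was 1.83-fold lower in Bt/Bl than in Bl. Without overlap, 3 of 6 were lower in Bt/Bl than in Bt (22.3% of all tested) and 3 than in Bl (23.7%), while 2 were higher in Bl than in Bt (20.1%). Duoxa2 in Bt/Bl lay at the level of Bt, with a log2 difference that rounds to 0.00 but a 90% interval from -1.93 to 1.93. For 1419075_s_at the interval in Bt/Bl against Bt was much narrower, from -0.59 to 0.46 around -0.06, and for Saa2 it was -1.23 to 0.72 around -0.25. Saa3 was lower in Bt/Bl than in Bt by a log2 difference of -0.43, with an interval from -0.93 to 0.07.

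A departure from additivity was taken as the log2 difference of Bt/Bl from GF less the sum of the differences of Bt and Bl. It was below 0 in all 6 tested probe sets, which belong to 5 genes, and 48.1% of all probe sets tested lay above 0. A probe set raised to a like level in all colonized states falls below 0 by the arithmetic. Saa2, Duoxa2 and Pglyrp1 entered the tests only through colonized states in which they were high. The sign is thus a description that supports nothing. Limma called 0 of 6 (0.113% of all tested), and 2 were lower at an unadjusted p under 0.05 (6.69%). These were Saa2, at -2.57 (standard error 0.79, adjusted p = 0.219), and 1419075_s_at of Saa1, at -1.16 (standard error 0.42, adjusted p = 0.290). With each GeneChip scaled to its median the Saa1 value shrank to -0.65 (adjusted p = 0.642) and that of Saa2 was -2.06, while the median of all probe sets moved from -0.055 to 0.48. Saa2, for example, was 3.71-fold and 4.97-fold over GF in the mono-associated states and 3.12-fold in the co-colonized state. Because Bt, Bl and Bt/Bl are each set against the same GF pool in this quantity, a deviation of that pool enters it for every gene.

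Genes that sense or transmit inflammatory signals were taken from lists of cytokines with their receptors and of transcription factors with their regulators. Of the 15 cytokine and receptor genes tested, limma called 0 against GF in any state, with medians of 0.10, 0.07 and 0.06. At an unadjusted p under 0.05 Il17re alone was higher, in Bt (4.75% of all tested genes), and Il1a alone lower, in Bt (4.34%) and Bt/Bl (3.51%), by log2 differences of -2.46 and -2.22 (adjusted p = 0.368 and 0.572). Il17rc and Il10rb, the brightest of these receptors, differed from GF by no more than 0.47 on the log2 scale at their brightest probe sets. Of the 13 transcription genes, 1 was called against GF, in Bt (0.216% of all tested genes). Socs3, which restrains signalling through STAT3, read 899.6 and 2151 in GF, 14698 and 7905 in Bt mice, 1628 and 1476 in Bl mice, and 6534 and 5709 in Bt/Bl mice. It rose in Bt by 2.95 on the log2 scale (standard error 0.44, limma adjusted p = 0.00625) and differed from GF by 2.13 in Bt/Bl (adjusted p = 0.0716) and by 0.16 in Bl (adjusted p = 0.921), and it was also called lower in Bl than in Bt. The mean signals of Saa1 (1419075_s_at) and Saa2 were instead highest in Bl, and whether the genes differ in this order was not tested. A second tested probe set of Socs3 differed by 2.25 in Bt (adjusted p = 0.443). Hnf4a and Nfkbia, the brightest of the list, differed from GF by no more than 0.23 at their brightest probe sets.

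Among 9 tested genes of metal and siderophore withholding, the group of Lcn2, limma called Tfrc alone against GF in Bt (0.216% of all tested genes). It called none in Bl or Bt/Bl. Tfrc is the transferrin receptor that imports iron. Tfrc read 31653 and 40152 in GF, 6415 and 8125 in Bt mice, 8252 and 25450 in Bl mice, and 14321 and 12237 in Bt/Bl mice, and fell in Bt by 2.30 on the log2 scale (standard error 0.38, adjusted p = 0.0141). Another of its probe sets differed by 0.36 in Bt (adjusted p = 0.928). Slc40a1, the iron exporter ferroportin, read 8414 and 11482 in GF and 27452 and 20825 in Bt (log2 difference 1.28, adjusted p = 0.137). A second tested probe set of Slc40a1 differed by 0.43 in Bt (adjusted p = 0.771). Fth1, the ferritin heavy chain, differed by at most 0.11 in any state at its brightest probe set. Of 7 tested acute-phase genes beyond the serum amyloid A members, limma called 0, with medians of 0.56 in Bt mice, 1.42 in Bl mice and 0.10 in Bt/Bl mice. All of them but Cfb entered the tests only through a colonized state in which they were high. The filter thus favoured medians above 0, and these support nothing. Cfb, complement factor B and the brightest of them, differed by 0.01, 0.05 and 0.10, and Saa4, which lies in the same gene cluster as the members, was not bright enough to test.

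**Figure D4:**
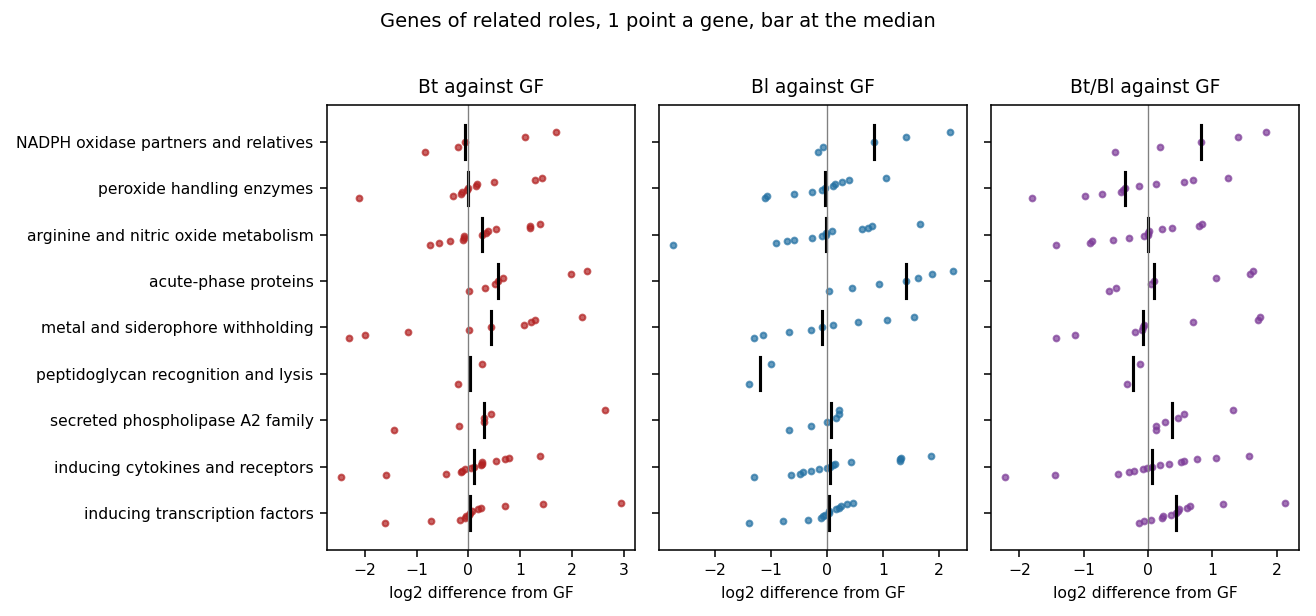
Differences from GF (log2) in Bt, Bl and Bt/Bl of the tested genes of 9 lists of related roles, with 1 point per gene at its brightest tested probe set and a black bar at the median of the list. Genes dim in GF entered only through colonized states in which they were high. The point farthest to the right among the transcription genes in Bt is Socs3 (2.95), and the point farthest to the left in metal withholding in Bt is Tfrc (-2.30), the only called genes of the lists against GF in the states shown.

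The probe sets whose 4 state means, centred on the log2 scale, lay nearest to those of the members were sought among 20641 probe sets with 1 gene symbol. For Duoxa2 the nearest was a probe set of Il17re, a receptor chain for interleukin 17 that epithelium expresses, with a largest distance of 0.15 in any state. It read 252 and 188.5 in GF, 1486 and 1834 in Bt mice, 298 and 1974 in Bl mice, and 932 and 2300 in Bt/Bl mice, so that, as for Duoxa2, 1 Bl GeneChip was near GF and 1 was high, though here the low one was 9134. A brighter probe set of Il17re differed from GF by 0.79, 0.15 and -0.30 and did not share this order. The next for Duoxa2 were 3830408C21Rik (0.26) and Ptgir (0.33). For 1419075_s_at of Saa1 they were Tmsb10 (0.03), Lsm6 (0.04) and Ptprg (0.04), for Saa2 Lbhd2 (0.04), 2900079G21Rik (0.05) and Mbd3l2 (0.05), and for Pglyrp1 Gnptab (0.05), Btk (0.09) and Zfp516 (0.14). The likeness is over 4 states of 1 pool each, and with so few points near matches occur among many probe sets.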

How the data were processed

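RNA of captured cecal epithelium was measured on 8 Mouse 430 2.0 GeneChips, 2 for each of the 4 colonization states. The authors deposited linear MAS5 signals of 45101 probe sets without detection calls, while their own analysis used dChip. A floor of 144.7, the 25th percentile over the whole table, replaced lower signals before log2 was taken. Probe sets entered the tests if, in some state, the signals of both GeneChips lay over 583.1, the median over the table, and 24865 of them did once control spots were removed. All 8 GeneChips entered 1 fit with limma 3.58.1 (R 4.3.3, moderated tests in which the spread may vary with signal, 4 residual degrees of freedom), with Benjamini-Hochberg adjustment per comparison and a threshold of 0.05. The fit was first tested on simulated data. The number of GeneChips, 2 per state, limits the precision. Probe sets were named from the platform annotation, in which 34958 had 1 gene, 932 several and 9211 none. A gene of a list is represented by its brightest tested probe set. The members and all lists were chosen with earlier results of these data known. All 10 members are named, with the called and brightest genes of each list and the nearest patterns. Signals of a second, glycan-directed GeneChip, on which 0 members were listed, were not used. Other scalings, floors, filters and models, and each GeneChip left out, were tried as alternatives.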

Additional observations from a re-analysis of the deposited data

How the results depend on the processing

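Of 814 recomputed log2 differences 784 kept their direction and side of the threshold, 29 reversed and 1 came to pass it. Saa1 (1419075_s_at), Saa2, Duoxa2 and Pglyrp1 against GF kept their direction in all 264 of theirs. In 1419075_s_at, Saa2 and Duoxa2 both GF signals lay below all colonized signals, so leaving out a GeneChip could not reverse them. Saa2, Duoxa2 and Pglyrp1 had entered only through colonized states in which they were high. Of the recomputed counts of called members 1 of 137 moved: with the filter at the 75th percentile, 1 of 5 was called for the mean of the colonized states (1419075_s_at, 0.97, adjusted p = 0.0240, range 0.0240 to 0.864). Scaling each GeneChip to its median moved the median of all probe sets by -0.22, -0.37 and -0.048 in Bt, Bl and Bt/Bl against GF. It turned Saa1 1450788_at in Bt/Bl against GF to -0.00398, 1419075_s_at to 0.095 in Bt/Bl against Bt and 0.086 against Bl, and Saa3 in Bl against Bt to -0.11. Scaling to the 75th percentile turned 1419075_s_at to 0.080 and 0.00946 in Bt/Bl against Bt and Bl, and Saa3 in Bl against Bt to -0.046. Quantile normalization turned 1419075_s_at to 0.14 in Bt/Bl against Bt, 0.16 against Bl and -0.020 in Bl against Bt, and 1450788_at to 6.5e-05 in Bt/Bl against Bt. The cause was not tested.

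With 1 GeneChip left out, 18 values reversed. Against GF, Saa1 1450788_at ranged from -0.30 to 0.90 in Bt, -0.55 to 0.64 in Bt/Bl and -0.18 to 1.02 for the mean of the colonized states, and Saa3 from -0.12 to 0.86 in Bl and -0.28 to 0.11 in Bt/Bl. In Bt/Bl against Bt, Duoxa2 ranged from -0.33 to 0.33 and Saa2 from -0.65 to 0.14. In Bt/Bl against Bl, Saa3 ranged from -0.95 to 0.031, Duoxa2 from -0.72 to 2.71 and Pglyrp1 from -1.07 to 1.24. In Bl against Bt, Saa3 ranged from -0.46 to 0.52, Duoxa2 from -2.71 to 0.72 and Pglyrp1 from -1.83 to 0.48. A state left with 1 GeneChip is assumed to vary like the others. Over all probe sets median scaling took the calls against GF from 42 to 20 in Bt, 34 to 18 in Bl and 49 to 12 in Bt/Bl, and those of Bt/Bl against Bt from 12 to 0 (2343 at an unadjusted p under 0.05). Without an intensity trend limma called 0 in all 3 states against GF (2421, 2705 and 1812 at an unadjusted p under 0.05), so that the calls of Socs3 and Tfrc were lost as well, and with no filter it called 13, 10 and 8. Without Bl 9135 the calls in Bl against GF went from 34 to 235. No paired analysis was possible because the states share no replicate numbers. Alternatives for the glycan-directed GeneChip were not run, as no member was listed on it, and with promoters of 300 bases instead of 250 the share with TTGCNNAA was 10.8%.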
